A study of Chlamydomonas reinhardtii with 8 samples.

Results

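RNA of dnmt1 cells was compared with RNA of wild-type (WT) cells in mt-, one of the mating types of Chlamydomonas reinhardtii, a unicellular green alga. The comparison used 4 of the 8 libraries of the study, chosen by their labels alone, 2 of WT mt- and 2 of dnmt1 mt-. The titles give CC-5325 strains for both groups, while the strain field of every sample reads CC-5155/CC-5325, and the genotype field gives WT or dnmt1 with no account of the lesion or of how many clones were used. Both groups were vegetative cells grown in the light in TAP medium, which holds acetate. The other 4 libraries hold the same genotypes in mt+, titled CC-5155, grown in the same way. The labels call replicates biological without naming separate cultures, so p-values measure only the spread between these samples, with n = 2 in each group.

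DNMT1-type enzymes are DNA cytosine methyltransferases; in animals and plants they copy the methylation of the old DNA strand onto the new one, and methylated promoters and repeats tend to be little transcribed. In Chlamydomonas, cytosine methylation is best known from the chloroplast DNA of mating cells and from repeats in the nucleus. The alga is haploid, photosynthesises, can live on acetate, ferments when oxygen runs out, and divides by a long growth phase followed by rapid rounds of DNA replication and division. These functions set the gene lists used below. Symbols were assigned to locus IDs by hand from the standard nomenclature of the species, since no file pairs them, and each is printed with its ID.

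Of 17693 genes in the table, 15263 had enough reads to be tested, and 572 had no read in any library. The mt- libraries held 21115955 and 14722049 reads in genes for WT and 16136054 and 15176221 for dnmt1. Replicates correlated at r = 0.995 (WT mt-) and 0.994 (dnmt1 mt-) over genes, which are not independent replicates, on log2(CPM + 1); CPM here is the count scaled to library size and the trimmed mean of M values (TMM). Genes of mating cells were near 0. FUS1 (Cre06.g252750), which mt+ gametes need for fusion, had 0 reads in all 4 mt- libraries, and GSM1 (Cre08.g375400), a mating-regulator gene of mt- gametes, had 12 and 8 reads in WT mt- and 8 and 10 reads in dnmt1 mt-. The mt+ gamete regulator GSP1 (Cre02.g109650) had 6 and 6 reads in WT mt- and 2 and 1 reads in dnmt1 mt-. FUS1 and GSP1 belong to mt+ gametes, so their low counts in mt- do not bear on the label vegetative. Of these genes only GSM1 bears on it.

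The locus listed as the DNA methyltransferase DMT1 went against the genotype label. DMT1 (Cre10.g461750) had 648 and 363 reads in WT mt- and 1321 and 1337 reads in dnmt1 mt-, or 28.7 and 24.5 CPM in WT mt- and 84.0 and 91.0 CPM in dnmt1 mt-. Both dnmt1 libraries lay above both WT libraries, by 3.27-fold (log2 fold change 1.71 ± 0.11, adjusted p = 5.74e-08, edgeR's quasi-likelihood test with Benjamini-Hochberg adjustment, as throughout). In mt+ the same locus was lower in the libraries labelled dnmt1 (log2 fold change -0.95, adjusted p = 7.78e-05). A count over the whole gene does not show whether a transcript is intact. From this locus alone, a disrupted gene that is still transcribed and an exchange of labels cannot be told apart. An exchange would turn the sign of every fold change given for mt-. Other genes can be set beside this locus. Cre06.g278278 had 0 reads in every WT library of both mating types, and between 239 and 352 reads in each library labelled dnmt1. By calls, 395 genes rose and 447 fell in both mating types, while 119 and 270 were called in opposite directions. An exchange of labels was not tested with these genes. WT mt- and dnmt1 mt- therefore stand below for the libraries so labelled.

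In mt-, 1820 genes (11.9% of those tested) were higher in the libraries labelled dnmt1 and 1774 (11.6%) were lower, at an adjusted p under 0.05. Most of these changes were small, with a median absolute log2 fold change of 0.60, and 292 genes (1.91%) rose and 283 (1.85%) fell by at least 2-fold. The 2 groups did not overlap for 67.3% of all tested genes, so the lack of overlap alone says little about a gene. They overlapped for none of the 3594 called genes, so its lack adds nothing to a call. Calls leaned upward among abundant transcripts: of 1495 genes above a mean of 100 CPM, 21.8% were higher and 9.23% lower, against 6.44% and 8.27% of the 5731 genes from 1 to 10 CPM. Scaling by library size in place of TMM moved the split from 50.6% to 33.1% of calls being higher (1209 higher and 2442 lower). The number of calls rested on single libraries, each written below by its group and replicate number: it was 761 higher and 832 lower without WT mt- 1, 969 and 883 without WT mt- 2, 846 and 845 without dnmt1 mt- 1, and 975 and 898 without dnmt1 mt- 2. Without WT mt+ 1 or 2, whose spread enters the same fit, it rose to 2832 and 2840 or to 2921 and 2761.

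**Figure D1:**
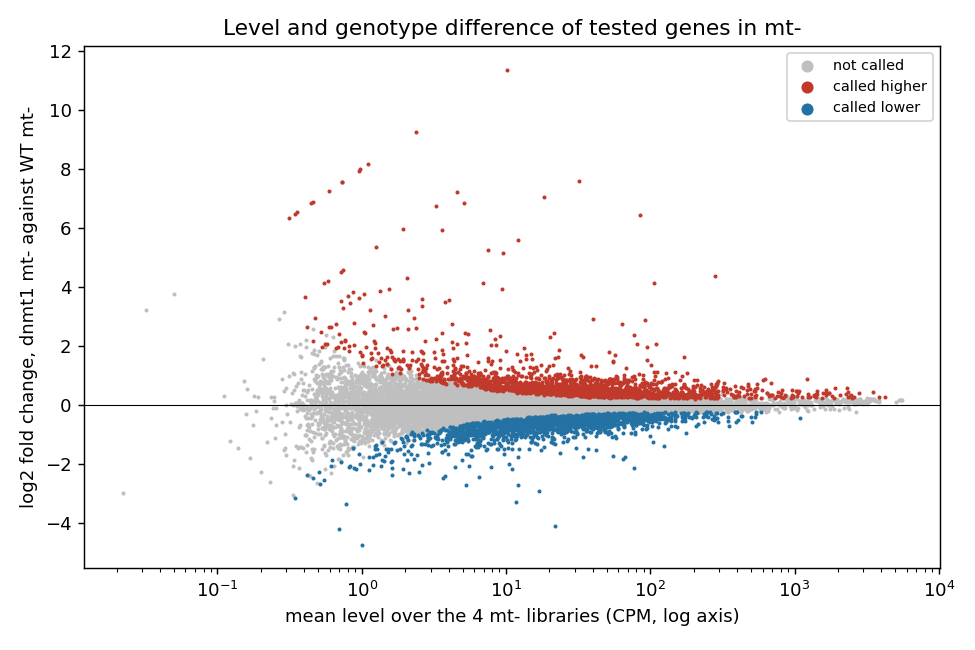
Mean level of each tested gene in the mt- libraries (x axis, CPM, log scale) against its log2 fold change in dnmt1 mt- over WT mt- (y axis), with genes called higher, lower or not called in separate colours; 2 tested genes with no read in mt- cannot be drawn on the log axis. The 1820 higher and 1774 lower genes spread on both sides of 0, and the band of uncalled genes widens toward low levels.

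Genes of cell division and DNA replication were lower in dnmt1 mt- almost as a whole list: 13 of 14 tested members fell and none rose. Of all tested genes, 11.6% fell and 11.9% rose. The median log2 fold change of the list was -0.70, against 0.01 for all tested genes. The sum of the 14 levels was 932.0 and 957 CPM in WT mt- and 599 and 598 CPM in dnmt1 mt-. RIR2 (Cre12.g491050), a subunit of ribonucleotide reductase, the enzyme that makes DNA precursors, was at 131 and 136 CPM in WT mt- and 63.5 and 65.6 CPM in dnmt1 mt-. It was 2.07-fold lower in dnmt1 mt- (log2 fold change -1.05 ± 0.08, adjusted p = 4.04e-07). The large subunit RNR1 (Cre12.g492950) fell as well, by 1.71-fold (log2 fold change -0.78 ± 0.15, adjusted p = 0.00153).

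Cyclins and their kinase partner moved the same way. CDKB1 (Cre08.g372550), a mitotic cyclin-dependent kinase, was at 77.2 and 74.3 CPM in WT mt- and 43.9 and 45.2 CPM in dnmt1 mt- (log2 fold change -0.77 ± 0.09, adjusted p = 2.08e-05). CYCB1 (Cre08.g370401), a mitotic cyclin, had 98.3 and 97.2 CPM in WT mt- and 63.1 and 60.4 CPM in dnmt1 mt- (log2 fold change -0.66 ± 0.10, adjusted p = 2.47e-04). For both genes each dnmt1 library was below each WT library by more than the replicates differed. CYCA1 (Cre03.g207900) and the G1 cyclin CYCD1 (Cre11.g467772) fell with log2 fold changes of -0.72 ± 0.09 and -0.69 ± 0.12 (adjusted p = 5.05e-05 and 7.83e-04).

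The replication machinery followed. PCNA1 (Cre12.g515850), the sliding clamp of DNA polymerase, had 128 and 130.2 CPM in WT mt- and 89.3 and 89.8 CPM in dnmt1 mt- (log2 fold change -0.53 ± 0.08, adjusted p = 2.07e-04). The replicative helicase subunits MCM2 (Cre07.g338000), MCM3 (Cre06.g295700) and MCM4 (Cre07.g316850) had log2 fold changes of -0.74 ± 0.09, -0.87 ± 0.14 and -0.65 ± 0.16 (adjusted p = 4.79e-05, 3.37e-04 and 0.00955). The S-phase transcription factor genes E2F1 (Cre01.g052300) and DP1 (Cre07.g323000) fell by 1.77-fold and 1.51-fold (adjusted p = 0.00264 and 0.00401). MAT3 (Cre06.g255450), the retinoblastoma-type repressor that works with them and sits in the mating-type region, was the exception, at 72.9 and 76.8 CPM in WT mt- and 79.2 and 71.1 CPM in dnmt1 mt- (log2 fold change 0.01 ± 0.11, adjusted p = 0.971). The calls of MCM4, DP1 and CDKA1 (Cre10.g465900) were lost with 1 library left out: MCM4 without dnmt1 mt- 1 (0.105) and without WT mt- 2 (0.0763), DP1 without dnmt1 mt- 1 (0.0594), and CDKA1 (log2 fold change -0.44) without dnmt1 mt- 1 (0.0869) and without WT mt- 2 (0.0812), with the adjusted p in parentheses. The list held 10 lower members without dnmt1 mt- 1 and 11 without WT mt- 2. In RNA of whole cultures, fewer cells in division and less of these RNAs per cell cannot be told apart.

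The fall of the cell-division genes was not shared by mt+, where 5 of the 14 were higher in dnmt1 and 1 lower (9.27% and 8.83% of all tested genes were). The genotype effect differed between the mating types for 11 of the 14, below that in mt+ for 10 and above it for MAT3, against 13.8% of all tested genes (6.81% below). For RIR2 the difference of log2 fold changes was -1.93 ± 0.11, adjusted p = 4.77e-08, and for CYCA1 it was -2.14 ± 0.13, adjusted p = 5.15e-08. In 11 of the 14 genes the dnmt1 mt- libraries were the lowest pair of the 8 libraries, beside 34.1% of all genes called lower. RIR2, for example, had 63.5 and 65.6 CPM there, against 131 and 136 CPM in WT mt-, 88.4 and 83.9 CPM in WT mt+ and 158 and 159 CPM in dnmt1 mt+. CYCA1 was one of the others, with 43.8 and 43.9 CPM in WT mt+ and 116 and 119 CPM in dnmt1 mt+.

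Hydrogenase and fermentation genes rose: 9 of 11 tested members were called higher and 1 lower (90.9% called, beside 23.5% of all tested genes). The median log2 fold change of the list was 0.47. In Chlamydomonas these enzymes make hydrogen, formate, ethanol and acetate when oxygen is lacking. HYDA2 (Cre09.g396600), an iron hydrogenase, was at 249 and 237 CPM in WT mt- and 422 and 395 CPM in dnmt1 mt-, and HYDEF1 (Cre06.g296750), which helps assemble the hydrogenase's metal centre, at 224 and 219 CPM in WT mt- and 367 and 355 CPM in dnmt1 mt-. Their log2 fold changes were 0.75 ± 0.08 (adjusted p = 2.29e-05) and 0.71 ± 0.10 (adjusted p = 1.29e-04). PFL1 (Cre01.g044800), pyruvate formate-lyase, had 1825 and 1860.1 CPM in WT mt- and 2818 and 2687 CPM in dnmt1 mt- (log2 fold change 0.58 ± 0.13, adjusted p = 0.00518). It was among the called genes with the widest gain in CPM, but its call was lost without dnmt1 mt- 1 (0.0631) and without WT mt- 1 (0.0504). The alcohol and aldehyde dehydrogenase ADH1 (Cre17.g746997) and the acetate kinase ACK1 (Cre09.g396700) rose by 1.42-fold and 1.33-fold (adjusted p = 0.00157 and 0.00160).

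PDC3 (Cre03.g165700), pyruvate decarboxylase, which opens another route to ethanol, ran against its list. It had 128 and 121 CPM in WT mt- and 28.0 and 28.7 CPM in dnmt1 mt-, a fall of 4.39-fold (log2 fold change -2.14 ± 0.09, adjusted p = 2.54e-10). In mt+ it was the other way round, with 32.1 and 35.0 CPM in WT mt+ and 107 and 106 CPM in dnmt1 mt+, so that the 2 genotype effects differed by -3.80 ± 0.13, adjusted p = 3.50e-11 on the log2 scale. WT mt- and dnmt1 mt+ were the high groups for this gene. The upward count of the list was lower in the fits without any 1 of the mt- libraries. HYDA2, HYDEF1, ADH1, ACK1 and PDC3 kept their calls in all 8 such fits.

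Chlorophyll synthesis genes also rose: 13 of 20 members passed upward and 1 downward (70% called, beside 23.5% of all tested genes). The median log2 fold change of the list was 0.48. UROD1 (Cre11.g467700), a middle step of tetrapyrrole synthesis, had 42.1 and 44.8 CPM in WT mt- and 91.6 and 84.0 CPM in dnmt1 mt-, a rise of 2.02-fold (log2 fold change 1.02 ± 0.11, adjusted p = 1.32e-05). CHLD1 (Cre05.g242000), a subunit of magnesium chelatase, the first enzyme of the chlorophyll branch, had 9.49 and 9.91 CPM in WT mt- and 20.3 and 19.7 CPM in dnmt1 mt- (log2 fold change 1.05 ± 0.15, adjusted p = 1.62e-04). Both dnmt1 libraries were about level with each other and above both WT libraries for these genes. Other chelatase subunits, CHLI1 (Cre06.g306300) and CHLI2 (Cre12.g510800), and the early enzymes GSA1 (Cre03.g158000) and ALAD1 (Cre02.g091050) had log2 fold changes of 0.75 ± 0.09, 0.65 ± 0.12, 0.91 ± 0.13 and 0.77 ± 0.09 (adjusted p = 3.84e-05, 0.00133, 1.96e-04 and 2.60e-05).

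HEMA1 (Cre07.g342150), glutamyl-tRNA reductase, the gateway of the whole pathway, fell instead. It had 68.4 and 62.6 CPM in WT mt- and 40.4 and 38.8 CPM in dnmt1 mt- (log2 fold change -0.73 ± 0.10, adjusted p = 1.12e-04). CHLH1 (Cre07.g325500), the large subunit of the chelatase, had 17.5 and 15.0 CPM in WT mt- and 17.3 and 16.8 CPM in dnmt1 mt-, with no call (adjusted p = 0.790). The upward count was 8 without WT mt- 1, 8 without WT mt- 2, 6 without dnmt1 mt- 1 and 10 without dnmt1 mt- 2, while UROD1, CHLD1, CHLI1, CHLI2, GSA1, ALAD1 and HEMA1 kept their calls in all 8 fits. WT mt- held the lowest pair of the 8 libraries for 11 of the 20 genes, beside 55.8% of all genes called higher. In mt+, 8 of the 20 members rose and 2 fell, beside 9.27% and 8.83% of all tested genes. The genotype effects differed for 3 of the 20, UROD1, ALAD1 and CHLG1 (Cre06.g294750), a share close to the 13.8% of all tested genes. Each was above that in mt+, as for 7% of all tested genes (for UROD1 by 1.00 ± 0.15, adjusted p = 3.65e-04 on the log2 scale). CHLG1, chlorophyll synthase, is named after its values were seen; its rise (log2 fold change 0.49 ± 0.11, adjusted p = 0.00522) was lost without dnmt1 mt- 1 (0.0517) and without WT mt- 1 (0.0901).

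**Figure D2:**
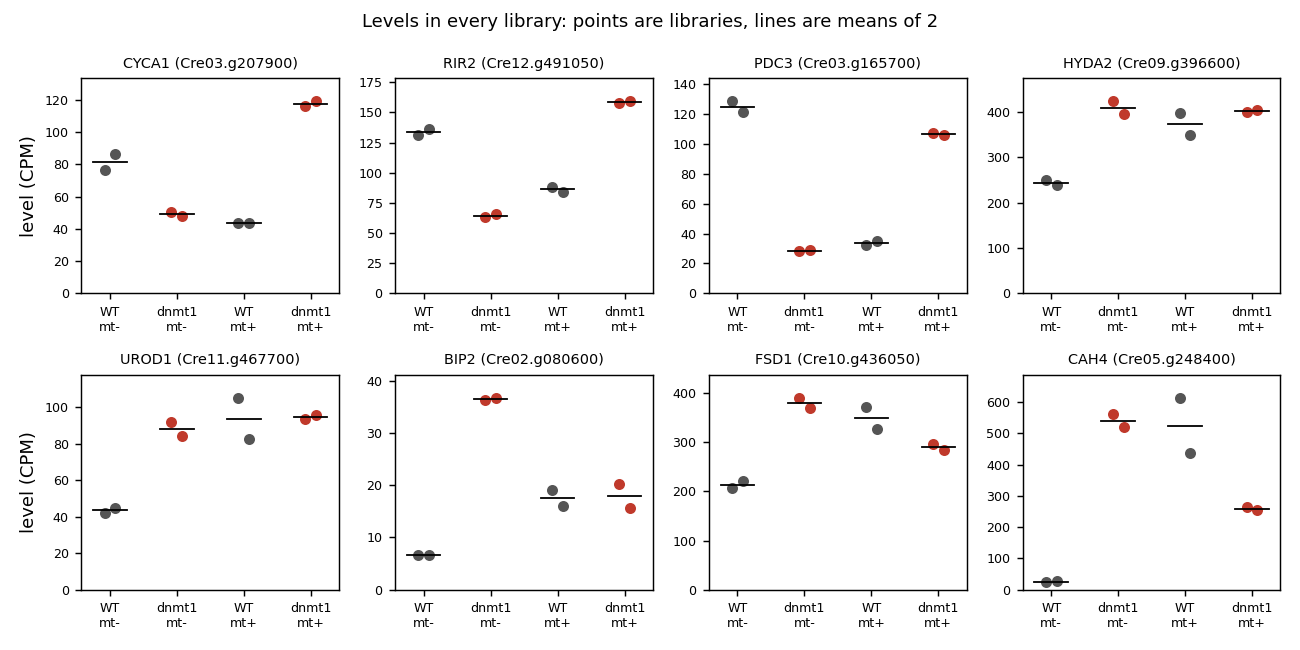
Level in each library (y axis, CPM, linear scale from 0) of 1 gene per panel, with 2 points for each of the 4 groups (WT and dnmt1 in mt- and mt+) and a bar at the group mean. RIR2 and PDC3 are lower and the carbonic anhydrase CAH4 is higher in dnmt1 mt- than in WT mt-, and these 3 genes move the other way in mt+.

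Carotenoid and isoprenoid genes showed no common direction, with 2 of 8 higher and 1 lower (37.5% called, beside 23.5% of all tested genes). HDR1 (Cre08.g372950), the last step of the plastid isoprenoid pathway, rose (log2 fold change 0.43 ± 0.08, adjusted p = 0.00142), and PDS1 (Cre12.g509650), phytoene desaturase, fell (log2 fold change -0.47 ± 0.10, adjusted p = 0.00382), a call that was lost without WT mt- 1 (0.0562). PSY1 (Cre02.g095092), phytoene synthase, was at 179 and 177 CPM in WT mt- and 167 and 162 CPM in dnmt1 mt- (adjusted p = 0.343). DXS1 (Cre07.g356350), the first step of the isoprenoid pathway, passed narrowly (adjusted p = 0.0467), and its call was lost without any 1 of the mt- or dnmt1 mt+ libraries (adjusted p from 0.0848 to 0.249). The list held 1 higher and no lower member without WT mt- 1, 1 of each without any other mt- or dnmt1 mt+ library, and 3 and 2 without a WT mt+ library.

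The antenna and photosystem genes had many reads, and the changes among them were small. In the light-harvesting antenna 11 of 20 members were higher and 3 lower, and in the photosystem subunits 9 of 15 were higher and none lower. Their median log2 fold changes were 0.24 and 0.27. Of all tested genes above a mean of 100 CPM in mt-, 21.8% were higher and 9.23% lower, and of all tested genes 11.9% and 11.6%. LHCB5 (Cre16.g673650), a minor antenna protein of photosystem II, had 1903 and 2047 CPM in WT mt- and 2567 and 2604 CPM in dnmt1 mt- (log2 fold change 0.39 ± 0.08, adjusted p = 0.00276). PSBX (Cre02.g082750), a small photosystem II subunit, had 2184 and 2619 CPM in WT mt- and 3151 and 3258 CPM in dnmt1 mt- (log2 fold change 0.42 ± 0.09, adjusted p = 0.00461), a call lost without dnmt1 mt- 2 (0.0684) and without WT mt- 1 (0.0650). The WT replicates were 2184 and 2619 CPM for this gene, so the gap between them was not small beside the gap between genotypes.

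These counts changed with the library left out. Antenna members called higher numbered 1 without WT mt- 1, 8 without WT mt- 2, 1 without dnmt1 mt- 1 and 2 without dnmt1 mt- 2. They numbered 3 without either dnmt1 mt+ library and 16 without either WT mt+ library. Photosystem members called higher numbered 0, 10, 1 and 0 with the same 4 mt- libraries left out in turn, and 6 or 14 without a dnmt1 mt+ or a WT mt+ library. Scaling changed the antenna count too, to 5 with RLE size factors and 6 with library size. WT mt- held the lowest pair of the 8 libraries for 12 of the 15 photosystem genes and 10 of the 20 antenna genes. It did so for 55.8% of all genes called higher, and the share over all tested genes was not counted.

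The 3 antenna genes that fell had the fewest reads of the list, counted without regard to gene length. LHCBM8 (Cre06.g284250) had 85.2 and 84.5 CPM in WT mt- and 43.6 and 43.9 CPM in dnmt1 mt- and LHCBM4 (Cre06.g283950) had 176 and 189.9 CPM in WT mt- and 113 and 113 CPM in dnmt1 mt- (log2 fold changes -0.96 ± 0.13, adjusted p = 9.36e-05, and -0.70 ± 0.11, adjusted p = 4.04e-04). LHCBM9 (Cre06.g284200), known as a stress-induced antenna gene, fell in mt- (log2 fold change -0.48 ± 0.14, adjusted p = 0.0213) and rose in mt+, a difference of -1.93 ± 0.21, adjusted p = 1.63e-05. Its mt- call was lost without any 1 of the 4 mt- libraries (adjusted p from 0.0794 to 0.152). These LHCBM genes are close copies of each other, and how the authors' counting shared reads between copies is not given in the sources used here.

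In electron transport 3 of 11 genes rose and none fell (27.3% called, near the 23.5% of all tested genes), and in the Calvin cycle 4 of 13 rose and 1 fell (38.5%). PETC (Cre11.g467689), the Rieske protein of cytochrome b6f, had 1888 and 2080.0 CPM in WT mt- and 2677 and 2788 CPM in dnmt1 mt- (log2 fold change 0.46 ± 0.09, adjusted p = 0.00165). CP12 (Cre08.g380250), the small protein that binds Calvin cycle enzymes in the dark, had 1263 and 1452 CPM in WT mt- and 1877 and 2023 CPM in dnmt1 mt- (log2 fold change 0.52 ± 0.09, adjusted p = 7.90e-04). Phosphoribulokinase, PRK1 (Cre12.g554800), one of its partners, rose by 1.35-fold (adjusted p = 0.00145). The Rubisco small subunits RBCS1 (Cre02.g120100) and RBCS2 (Cre02.g120150) did not pass (log2 fold changes 0.15 and 0.03, adjusted p = 0.400 and 0.877). The Calvin cycle count was 2 higher and none lower without WT mt- 1, dnmt1 mt- 1 or dnmt1 mt- 2, and 3 higher and none lower without WT mt- 2. It was 6 higher and 3 lower without WT mt+ 1 or 2, and the electron transport count was then 7 higher and 1 lower. The electron transport count was 5 higher without WT mt- 2 and 2 without any other mt- or dnmt1 mt+ library.

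**Figure D3:**
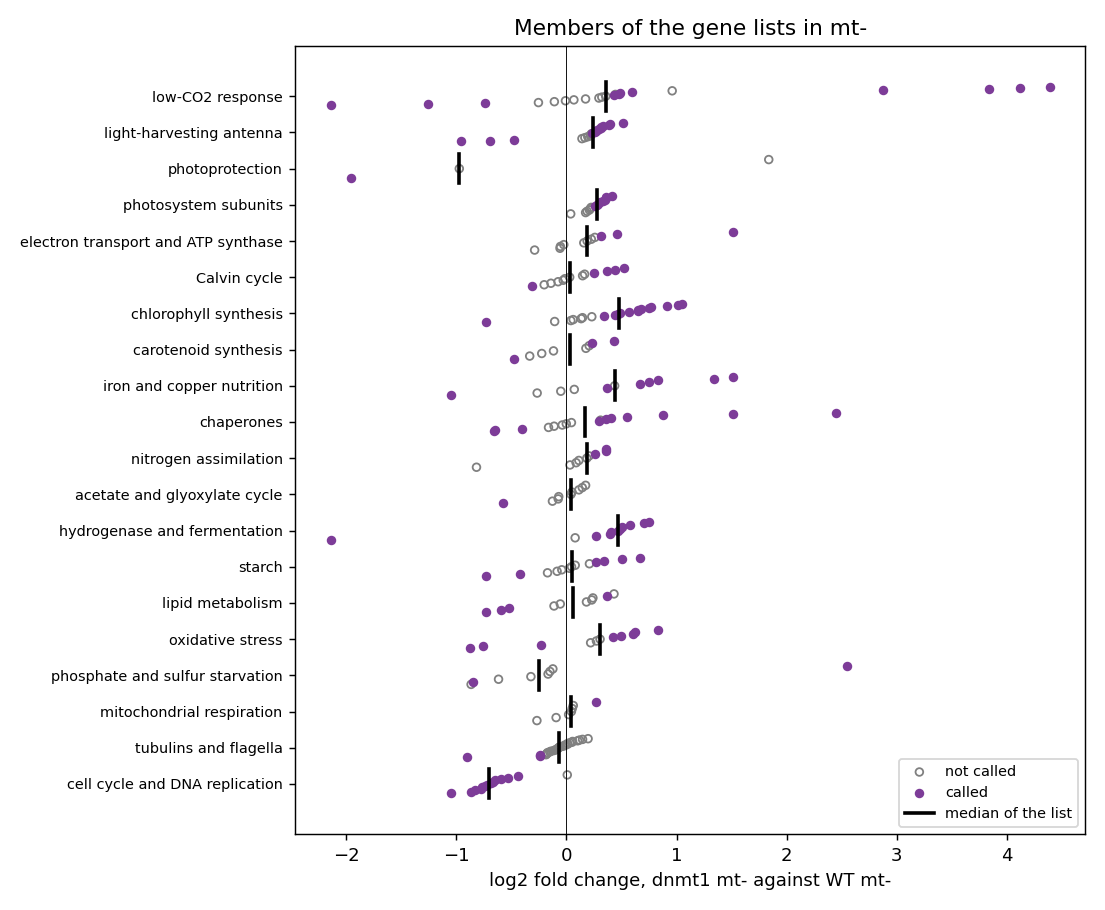
Log2 fold change in dnmt1 mt- over WT mt- (x axis) of every tested member of 20 gene lists (y axis, 1 row per list), with called members filled, uncalled members open and a bar at the median of each list. Members of cell cycle and DNA replication lie left of 0 apart from MAT3, and most of hydrogenase and fermentation, chlorophyll synthesis and the photosystem subunits lie right of 0.

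The list named low-CO2 response holds genes that Chlamydomonas uses to concentrate inorganic carbon. It also holds carbonic anhydrases whether or not they belong to that response. Of its 21 tested members, 8 rose and 3 fell in dnmt1 mt-. That was 52.4% called, beside 23.5% of all tested genes. The risers were 6 of the 8 carbonic anhydrases on the list, 3 of them steeply, and the channel genes LCIA and BST3. CAH4 (Cre05.g248400), a mitochondrial carbonic anhydrase, had 24.7 and 27.1 CPM in WT mt- and 560.5 and 519.5 CPM in dnmt1 mt-, a rise of 20.9-fold (log2 fold change 4.39 ± 0.14, adjusted p = 1.51e-11). Its neighbour CAH5 (Cre05.g248450) had 10.7 and 12.5 CPM in WT mt- and 209 and 191 CPM in dnmt1 mt- (log2 fold change 4.12 ± 0.14, adjusted p = 1.87e-11). The pair are near-identical copies, so the share of each is uncertain.

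CAH1 (Cre04.g223100), the periplasmic carbonic anhydrase, had 22.7 and 21.0 CPM in WT mt- and 153 and 169 CPM in dnmt1 mt- (log2 fold change 2.88 ± 0.11, adjusted p = 7.07e-11). All 3 fell in the libraries labelled dnmt1 in mt+, with log2 fold changes of -1.01, -1.19 and -1.02. Their differences between the mating types were 5.40 ± 0.19, adjusted p = 3.50e-11 for CAH4 and 3.90 ± 0.14, adjusted p = 8.36e-11 for CAH1. WT mt- was the group that stood apart: CAH4 was at 613 and 436 CPM in WT mt+ and 263 and 256 CPM in dnmt1 mt+, above both WT mt- libraries. The chloroplast nitrite and bicarbonate channel LCIA (Cre06.g309000) rose from 0.0887 and 0.135 CPM to 2.03 and 1.23 CPM (adjusted p = 0.00196), all at very low levels.

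The other carbonic anhydrases changed little or did not pass. CAH6 (Cre12.g485050), CAH7 (Cre13.g607350) and CAH8 (Cre09.g405750) rose by 1.35-fold, 1.51-fold and 1.39-fold (adjusted p = 0.0164, 3.34e-04 and 0.00984). The call of CAH6 was lost without any 1 of the 4 mt- libraries (adjusted p from 0.0577 to 0.148) and that of CAH8 without dnmt1 mt- 1 (0.0962), without WT mt- 1 (0.102) and without WT mt- 2 (0.0691). CAH2 (Cre04.g223050) was at 4.39 and 4.25 CPM in WT mt- and 4.32 and 5.45 CPM in dnmt1 mt- and CAH3 (Cre09.g415700), of the thylakoid lumen, at 62.8 and 61.6 CPM in WT mt- and 63.0 and 60.6 CPM in dnmt1 mt-, neither of them called (adjusted p = 0.664 and 0.957).

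The remaining members of the list went in both directions or did not pass. LCIB (Cre10.g452800), which recaptures leaked CO2 around the pyrenoid, had 57.3 and 58.5 CPM in WT mt- and 53.9 and 53.3 CPM in dnmt1 mt- (adjusted p = 0.492), and CIA5 (Cre02.g096300), the master regulator of the response, had 51.7 and 51.7 CPM in WT mt- and 40.0 and 46.7 CPM in dnmt1 mt- (adjusted p = 0.0774). The plasma membrane bicarbonate transporter HLA3 (Cre02.g097800) was at 6.74 and 7.96 CPM in WT mt- and 11.1 and 8.72 CPM in dnmt1 mt- (adjusted p = 0.109). The linker of Rubisco in the pyrenoid, EPYC1 (Cre10.g436550), was at 84.9 and 84.7 CPM in WT mt- and 109 and 98.5 CPM in dnmt1 mt- (adjusted p = 0.112). BST2 (Cre16.g663400), a bestrophin-type channel of the thylakoid, fell, with 36.6 and 33.2 CPM in WT mt- and 15.2 and 14.0 CPM in dnmt1 mt- (log2 fold change -1.26 ± 0.13, adjusted p = 1.32e-05). BST3 (Cre16.g663450), another of these channels, rose by 1.4-fold (adjusted p = 0.00939), lost without dnmt1 mt- 1 (0.154) and without WT mt- 2 (0.111). LCID (Cre04.g222800), a relative of LCIB, fell from 2.57 and 2.7 CPM to 0.509 and 0.681 CPM (log2 fold change -2.14 ± 0.48, adjusted p = 0.00473), lost without dnmt1 mt- 1 (0.0658). CCP2 (Cre04.g222750), a carrier protein of low-CO2 cells, fell by 1.67-fold (adjusted p = 0.0104), lost without dnmt1 mt- 1 (0.0879), without dnmt1 mt- 2 (0.0553) and without WT mt- 1 (0.105). The upward count was 6 without WT mt- 1, 5 without WT mt- 2 or dnmt1 mt- 1, and 7 without dnmt1 mt- 2. The downward count was 1 without dnmt1 mt- 1 and 2 without WT mt- 1 or dnmt1 mt- 2. The photoprotection gene LHCSR1 (Cre08.g365900) fell from 3.64 and 5.73 CPM to 0.763 and 1.63 CPM (adjusted p = 0.00373). Its call was lost without dnmt1 mt- 1 and without WT mt- 2. It was the only call among 3 tested photoprotection genes (33.3%, beside 23.5% of all tested genes). LHCSR3.2 (Cre08.g367400) was 3.57-fold higher and LHCSR3.1 (Cre08.g367500) 1.96-fold lower, neither of them called.

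Among 16 chaperone genes, 7 rose and 3 fell (62.5% called, beside 23.5% of all tested genes). The 3 strongest rises were all of the endoplasmic reticulum. BIP2 (Cre02.g080600), an HSP70 of that compartment, had 6.65 and 6.74 CPM in WT mt- and 36.2 and 36.7 CPM in dnmt1 mt-, a rise of 5.44-fold (log2 fold change 2.44 ± 0.15, adjusted p = 3.18e-08). BIP1 (Cre02.g080700) had 28.3 and 29.2 CPM in WT mt- and 84.6 and 78.7 CPM in dnmt1 mt- (log2 fold change 1.51 ± 0.12, adjusted p = 5.01e-07). HSP90B (Cre02.g080650), the HSP90 of the same compartment, had 39.2 and 41.3 CPM in WT mt- and 71.8 and 75.5 CPM in dnmt1 mt- (log2 fold change 0.87 ± 0.10, adjusted p = 3.70e-05). The 3 genes follow one another on chromosome 2 with Cre02.g080750 next to them, a run of 4 higher genes. In mt+ their log2 fold changes were 0.05, 0.06 and 0.28, none of them called, and the differences were 2.39 ± 0.21, adjusted p = 2.74e-06 for BIP2 and 1.45 ± 0.16, adjusted p = 2.51e-05 for BIP1. BIP1 and BIP2 are close copies, so reads could be split between them.

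Chaperones of other compartments were mixed. HSP70C (Cre09.g393200), the mitochondrial HSP70, rose (log2 fold change 0.55 ± 0.09, adjusted p = 6.36e-04). The small heat shock proteins HSP22E (Cre14.g617450) and HSP22F (Cre14.g617400) of the chloroplast had log2 fold changes of -0.41 and -0.66 (adjusted p = 0.0151 and 5.58e-04), and both rose in mt+. The call of HSP22E was lost without any 1 of the 4 mt- libraries (adjusted p from 0.0631 to 0.129). The plastid J-protein CDJ1 (Cre12.g507650) fell, with 48.2 and 49.8 CPM in WT mt- and 31.4 and 31.1 CPM in dnmt1 mt- (log2 fold change -0.65 ± 0.10, adjusted p = 3.22e-04). The cytosolic HSP70 HSP70A (Cre08.g372100) was at 83.7 and 83.3 CPM in WT mt- and 84.5 and 87.8 CPM in dnmt1 mt- (adjusted p = 0.741). The upward count was 5 without WT mt- 1 and 4 without any other 1 mt- library, and the downward count 2 without any 1 mt- library.

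Metal and redox genes shifted in both directions. Of the 11 tested genes of iron and copper nutrition, 6 rose and 1 fell (63.6% called, beside 23.5% of all tested genes). CTR2 (Cre10.g434350), a copper transporter, had 23.7 and 20.1 CPM in WT mt- and 57.9 and 53.7 CPM in dnmt1 mt- and rose 2.53-fold (log2 fold change 1.34 ± 0.16, adjusted p = 3.05e-05). It rose by a like amount in mt+ (log2 fold change 1.39), as did CTR1 (Cre13.g570600), with 0.75 in mt- and 0.86 in mt+ (adjusted p = 8.87e-05 and 3.07e-05). CYC6 (Cre16.g651050), the cytochrome that replaces plastocyanin when copper is short, moved in opposite directions in the mating types. It had 5.85 and 7.28 CPM in WT mt- and 19.3 and 17.7 CPM in dnmt1 mt- (log2 fold change 1.51 ± 0.17, adjusted p = 2.60e-05), and fell in mt+ (log2 fold change -0.95), a difference of 2.46 ± 0.25, adjusted p = 8.31e-06. CRR1 (Cre09.g390023), the copper response regulator, was at 605 and 607 CPM in WT mt- and 583 and 587 CPM in dnmt1 mt- (adjusted p = 0.677), and plastocyanin, PCY1 (Cre03.g182551), at 1891 and 2266 CPM in WT mt- and 2332 and 2402 CPM in dnmt1 mt- (adjusted p = 0.169). The iron-assimilation gene FEA2 (Cre12.g546600) rose (log2 fold change 0.67 ± 0.13, adjusted p = 0.00153), while the ferroxidase FOX1 (Cre09.g393150) passed with 0.37 (adjusted p = 0.00826) and was lost without any 1 of the 4 mt- libraries (adjusted p from 0.0657 to 0.0952). MSD3 (Cre16.g676150), a manganese superoxide dismutase and the 1 member that fell, had 6.61 and 5.26 CPM in WT mt- and 3.12 and 2.66 CPM in dnmt1 mt- (adjusted p = 0.0391), also lost without any 1 of the 4 mt- libraries (adjusted p from 0.0790 to 0.240).

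In the oxidative stress list 5 of 11 genes rose and 3 fell (72.7% called, beside 23.5% of all tested genes). FSD1 (Cre10.g436050), the iron superoxide dismutase of the chloroplast, had 206 and 220.1 CPM in WT mt- and 389.8 and 370.2 CPM in dnmt1 mt- (log2 fold change 0.83 ± 0.09, adjusted p = 9.26e-06). APX1 (Cre02.g087700), an ascorbate peroxidase, and MSD1 (Cre02.g096150), a manganese superoxide dismutase, rose by 1.54-fold and 1.41-fold (adjusted p = 5.77e-05 and 2.64e-04). GSTS1 (Cre16.g688550), a glutathione transferase known as a marker of singlet oxygen responses, fell, with 37.2 and 36.1 CPM in WT mt- and 20.0 and 20.0 CPM in dnmt1 mt- (log2 fold change -0.87 ± 0.11, adjusted p = 4.81e-05). GPX5 (Cre10.g458450), the glutathione peroxidase known from the same response, had 425 and 443 CPM in WT mt- and 376 and 364 CPM in dnmt1 mt- (log2 fold change -0.23 ± 0.08, adjusted p = 0.0382), lost without any 1 of the mt- or dnmt1 mt+ libraries (adjusted p from 0.0644 to 0.236). The count was 3 higher and 1 lower without WT mt- 1, 3 and 2 without dnmt1 mt- 1, 4 and 2 without WT mt- 2, and 4 and 1 without dnmt1 mt- 2. Without a dnmt1 mt+ library it was 4 and 2.

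The acetate and respiration lists had few calls beside the 23.5% of all tested genes called in either direction. Of 9 acetate and glyoxylate genes, 1 was called: ACS2 (Cre01.g055408), an acetyl-CoA synthetase, fell with 611 and 610.3 CPM in WT mt- and 399.6 and 417 CPM in dnmt1 mt- (log2 fold change -0.58 ± 0.08, adjusted p = 9.36e-05), as it did in mt+ (log2 fold change -0.69). Isocitrate lyase, ICL1 (Cre06.g282800), the hallmark enzyme of growth on acetate, was at 4755 and 5206 CPM in WT mt- and 5628 and 5607 CPM in dnmt1 mt- (adjusted p = 0.156). Without a WT mt+ library 2 acetate genes rose. Among 7 genes of mitochondrial respiration, AOX1 (Cre09.g395950), an alternative oxidase, was called higher (log2 fold change 0.26 ± 0.09, adjusted p = 0.0423), lost without any 1 of the mt- or dnmt1 mt+ libraries (adjusted p from 0.0753 to 0.236). The adenine nucleotide carrier ANT1 (Cre09.g386650) was at 2436 and 2672 CPM in WT mt- and 2624 and 2644 CPM in dnmt1 mt- (adjusted p = 0.744).

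Among 9 tested genes of nitrogen assimilation 3 rose and none fell (33.3% called, beside 23.5% of all tested genes). They were GLN1 (Cre02.g113200), GSN1 (Cre13.g592200) and GDH1 (Cre09.g388800), of glutamine and glutamate synthesis, with log2 fold changes of 0.26, 0.36 and 0.36 (adjusted p = 0.0225, 0.0271 and 0.00326). None of the 3 was called without WT mt- 1, 1 was called without any other 1 mt- library, and 5 members were called without a WT mt+ library. The nitrate reductase NIT1 (Cre09.g410950) and the nitrate transporters NRT2.1 (Cre09.g410850) and NRT2.2 (Cre09.g410800) had 0 reads in all 4 mt- libraries. In starch metabolism 4 of 13 rose and 2 fell (46.2% called). The isoamylase STA7 (Cre03.g155001) fell (log2 fold change -0.73 ± 0.18, adjusted p = 0.00812) and rose in mt+ (0.74), and the disproportionating enzyme STA11 (Cre03.g181500) rose (log2 fold change 0.51 ± 0.11, adjusted p = 0.00298); the STA7 call was lost without dnmt1 mt- 1 (0.101) and without WT mt- 1 (0.119) and that of STA11 without WT mt- 1 (0.0522). No starch gene was called in either direction without WT mt- 1, 1 in each without either dnmt1 mt- library, and 2 in each without WT mt- 2.

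Of 10 lipid genes 1 rose and 3 fell (40% called), among them FAD7 (Cre01.g038600), a plastid fatty acid desaturase, with 45.9 and 46.0 CPM in WT mt- and 27.0 and 28.4 CPM in dnmt1 mt- (log2 fold change -0.73 ± 0.11, adjusted p = 2.25e-04), and BTA1 (Cre07.g324200), which makes the betaine lipid DGTS (log2 fold change -0.60 ± 0.13, adjusted p = 0.00431), lost without dnmt1 mt- 2 (0.0543) and without WT mt- 1 (0.0642). The downward count was 1 without WT mt- 1 or dnmt1 mt- 2, none rose without any 1 mt- library, and 4 rose without a WT mt+ library. Of 8 phosphate and sulfur starvation genes 1 rose and 1 fell (25% called, beside 23.5% of all tested genes). The phosphate transporter PTB4 (Cre02.g144650) rose from 2.75 and 1.62 CPM to 12.2 and 14.2 CPM (log2 fold change 2.54 ± 0.25, adjusted p = 5.38e-06). WT mt- was again the group apart for PTB4, with 11.9 and 9.2 CPM in WT mt+ and 10.4 and 7.92 CPM in dnmt1 mt+. The sulfate transporter SULTR2 (Cre17.g723350) fell (log2 fold change -0.84 ± 0.26, adjusted p = 0.0271), lost without dnmt1 mt- 1 (0.216), without WT mt- 1 (0.162) and without WT mt- 2 (0.0800); 4 members fell without a WT mt+ library. In mt+ it rose (log2 fold change 2.08).

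Of 27 tubulin and flagellar genes none rose, beside 11.9% of all tested genes, and 3 fell (11.1%), a share close to the 11.6% of all tested genes; the median log2 fold change was -0.07. FMG1 (Cre09.g392867), the main glycoprotein of the flagellar membrane, had 98.3 and 108 CPM in WT mt- and 56.8 and 52.8 CPM in dnmt1 mt- (log2 fold change -0.91 ± 0.17, adjusted p = 0.00134) and fell in mt+ too (-1.15). The intraflagellar transport gene IFT81 (Cre17.g723600) (log2 fold change -0.24) and the central-pair gene PF6 (Cre10.g434400) (-0.24) passed narrowly (adjusted p = 0.0441 and 0.0493), and both were lost without any 1 of the mt- or dnmt1 mt+ libraries (adjusted p from 0.0506 to 0.207 and from 0.0648 to 0.241), which left FMG1. Without a WT mt+ library 8 fell and 1 rose. The alpha tubulins TUA1 (Cre03.g190950) and TUA2 (Cre04.g216850) were at 2094 and 2254 CPM in WT mt- and 2469.8 and 2511 CPM in dnmt1 mt-, and at 2144 and 2284 CPM in WT mt- and 2382 and 2423 CPM in dnmt1 mt- (adjusted p = 0.106 and 0.326).

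Among called genes that averaged 5 CPM or more in mt- with no overlap between the groups, the steepest rises were of genes with almost no reads in WT mt-, most of them without a symbol. Cre06.g800688 went from 0.177 and 0.539 CPM to 60.3 and 66.9 CPM (log2 fold change 7.59 ± 0.22, adjusted p = 5.81e-12), Cre05.g800547 from 0.177 and 0.405 CPM to 35.5 and 37.1 CPM, and Cre05.g800549, which follows it closely by ID, from 2.08 and 1.69 CPM to 166 and 169.6 CPM. These genes were off or nearly off in WT and on in both dnmt1 libraries. They were so in mt+ as well, where dnmt1 had 56.1 and 62.1 CPM, 17.2 and 17.4 CPM and 117 and 117 CPM for the 3 genes, and WT had 0.170 and 0.118, 0 and 0 and 0.510 and 1.59 CPM. The next in rank, Cre17.g802133, Cre09.g397401, Cre03.g800374, Cre09.g801044, Cre16.g802003 and Cre17.g802138, had log2 fold changes of 6.85, 5.60, 5.26, 5.16, 4.14 and 3.92. Of the 12 steepest rises among genes of that level, CAH4, CAH5 and Cre01.g043817 (log2 fold change 2.92 ± 0.11, adjusted p = 8.78e-11) had more reads in WT mt-, and the other 9 had at most 2.08 CPM in either WT mt- library.

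Another 13 genes called higher were without a read in WT mt-, and no called gene was without one in dnmt1 mt-. Cre06.g278278 went from 0 reads to 352 and 272 reads (22.4 and 18.5 CPM), at least 122-fold against a floor of 3 reads per library, and from 0 to 276 and 239 reads in mt+. Cre17.g802127 went from 0 to 68 and 77 reads, at least 28.5-fold, and Cre01.g800017 from 0 to 40 and 28 reads, at least 13.3-fold. In mt+ the WT libraries had 0 reads for 10 of the 13 and at most 4 reads for the others. Reads without molecular identifiers are not independent molecules, so floors and bounds cover counting error only.

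IDs whose number begins with 8, given in the newer annotation, were common among the steepest rises. They made up 1156 of the tested genes, of which 8.3% were higher and 8.04% lower, beside 12.3% and 11.8% of other nuclear genes. At 2-fold and above 4.84% of them rose and 2.51% fell, beside 1.67% and 1.68% of the other 14032 nuclear genes. At 8-fold and above, 26 of the 1156 and 24 of the 14032 genes rose, and 1 and 5 fell. By level, 21 of the 841 tested genes under 1 CPM and 23 of the 5731 from 1 to 10 CPM rose that much. The levels of the 2 ID classes were not compared. The files give no product names, so nothing is said of what these genes encode.

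Under the same conditions, several of the steepest falls were of genes expressed in all other groups. Cre17.g731571 had 42.2 and 40.7 CPM in WT mt- and 1.91 and 3.0 CPM in dnmt1 mt- (log2 fold change -4.08 ± 0.17, adjusted p = 2.15e-10), and Cre17.g731591 near it on chromosome 17 had 19.4 and 23.3 CPM in WT mt- and 1.78 and 2.66 CPM in dnmt1 mt- (log2 fold change -3.26 ± 0.20, adjusted p = 3.28e-08). In mt+ they stayed between 35.2 and 47.6 CPM and between 20.7 and 36.2 CPM in the 4 libraries. Cre17.g737350 behaved likewise, with 28.0 and 32.2 CPM in WT mt- and 4.7 and 3.2 CPM in dnmt1 mt- and 27.5 and 24.0 CPM in WT mt+ and 28.8 and 25.0 CPM in dnmt1 mt+. The differences between the mating types were -3.82 ± 0.21, adjusted p = 2.78e-08 for Cre17.g731571, -2.66 ± 0.26, adjusted p = 6.43e-06 for Cre17.g731591 and -2.99 ± 0.23, adjusted p = 5.17e-07 for Cre17.g737350.

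Cre05.g245500 and Cre01.g016700 were high in WT mt- alone: they had 9.62 and 8.7 CPM in WT mt- and 1.4 and 1.43 CPM in dnmt1 mt-, and 11.4 and 10.5 CPM in WT mt- and 2.54 and 1.5 CPM in dnmt1 mt-, against at most 2.03 CPM and 0.826 CPM in any mt+ library. Their differences were -2.81 and -2.08 on the log2 scale. Cre04.g220850 and Cre02.g083750 fell in both mating types, with log2 fold changes of -1.99 and -2.07 in mt- and -2.63 and -2.07 in mt+. Cre01.g011630 and Cre12.g494550 completed the nuclear part of the 12 steepest falls at that level, with -2.70 and -1.81.

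By gain in CPM, among called genes under the same conditions, the order was led by genes with many reads. Cre09.g402219 had 2658 and 3235 CPM in WT mt- and 3878 and 4128 CPM in dnmt1 mt- (log2 fold change 0.44 ± 0.10, adjusted p = 0.00431), lost without dnmt1 mt- 2 (0.0743) and without WT mt- 1 (0.0609). Cre10.g443050 had 828 and 881 CPM in WT mt- and 1627 and 1533 CPM in dnmt1 mt- (log2 fold change 0.89 ± 0.09, adjusted p = 8.75e-06) and Cre05.g237450 had 1441 and 1588 CPM in WT mt- and 2249 and 2307 CPM in dnmt1 mt- (log2 fold change 0.59 ± 0.08, adjusted p = 1.72e-04). PFL1, PSBX, LHCBM1 (Cre01.g066917), PETC, LHCA1 (Cre06.g283050), LHCB5 and CP12 made up the rest of the 10 widest gains of called genes; LHCBM1 and LHCA1 passed narrowly (adjusted p = 0.0493 and 0.0328) and were lost without any 1 of the dnmt1 libraries of either mating type or WT mt- 1 (adjusted p from 0.0905 to 0.352 and from 0.0706 to 0.257). The widest losses of called genes were smaller in CPM. Cre06.g275100 went from 1222 and 1271 CPM to 951 and 893 CPM (log2 fold change -0.43 ± 0.09, adjusted p = 0.00207), lost without dnmt1 mt- 2 (0.0536), and Cre12.g801391 from 429 and 446 CPM to 272 and 265 CPM (log2 fold change -0.70 ± 0.08, adjusted p = 2.03e-05). Cre03.g159500, Cre17.g696700, Cre03.g194150 and Cre02.g108350 had log2 fold changes from -0.56 to -0.39. Cre12.g498650, Cre07.g340050 and Cre02.g095095 fell by 1.48-fold, 1.32-fold and 1.23-fold. The calls of these last were lost in some fits that left out a library, and that of Cre12.g498650 also with DESeq2. ACS2, given above, was the other gene of these losses.

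Transcripts of the chloroplast genome fell where they changed: of 67 tested genes 26 were lower (38.8%) and none higher. Of all tested genes, 11.6% were lower and 11.9% higher. The median log2 fold change of the chloroplast genes was -0.74. Chloroplast transcripts were a minute part of each library, with 0.0563% and 0.0659% of reads in WT mt- and 0.0395% and 0.0298% in dnmt1 mt-. The share was 0.0660% and 0.0407% in WT mt+ and 0.0559% and 0.0436% in dnmt1 mt+. The WT mt+ replicates thus lay about as far apart as the mt- groups. Whether the 26 calls go beyond a shift of this whole share between libraries was not tested. Among those averaging 5 CPM or more in mt-, the 2 steepest were CreCp.g802307, with 16.5 and 19.6 CPM in WT mt- and 4.96 and 3.06 CPM in dnmt1 mt- (log2 fold change -2.15 ± 0.29, adjusted p = 1.06e-04), and CreCp.g802308, with 11.4 and 14.4 CPM in WT mt- and 4.64 and 1.29 CPM in dnmt1 mt- (log2 fold change -2.09 ± 0.36, adjusted p = 6.98e-04). In mt+, 3 chloroplast genes rose and 4 fell, beside 9.27% and 8.83% of all tested genes. The downward count was 19 without WT mt- 1, 11 without WT mt- 2, 18 without dnmt1 mt- 1 and 13 without dnmt1 mt- 2. Of 8 mitochondrial genes 2 rose and none fell; 1 rose without WT mt- 1 or dnmt1 mt- 1, 3 without dnmt1 mt- 2 and 5 without a WT mt+ library.

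The nuclear chromosomes ranged from 8.45% to 14.7% of genes higher and from 10.4% to 16.3% lower, with 16.3% on chromosome 4. In the mating-type region, from Cre06.g250650 up to Cre06.g255450 by ID, 7 of 70 genes rose and 7 fell, 20% against the 23.5% of all tested genes. Each count there was 4 or fewer without any 1 mt- library, and 11 and 13 without a WT mt+ library. For 15.4% of higher genes the next gene was also higher, beside 12.3% of all genes placed in order, and for 14.5% of lower genes the next was lower, beside 11.8%; no test was made of these shares. The longest runs were 6 lower genes from Cre06.g278149 to Cre06.g278156 and 6 higher genes from Cre09.g409426 to Cre09.g409750.

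**Figure D4:**
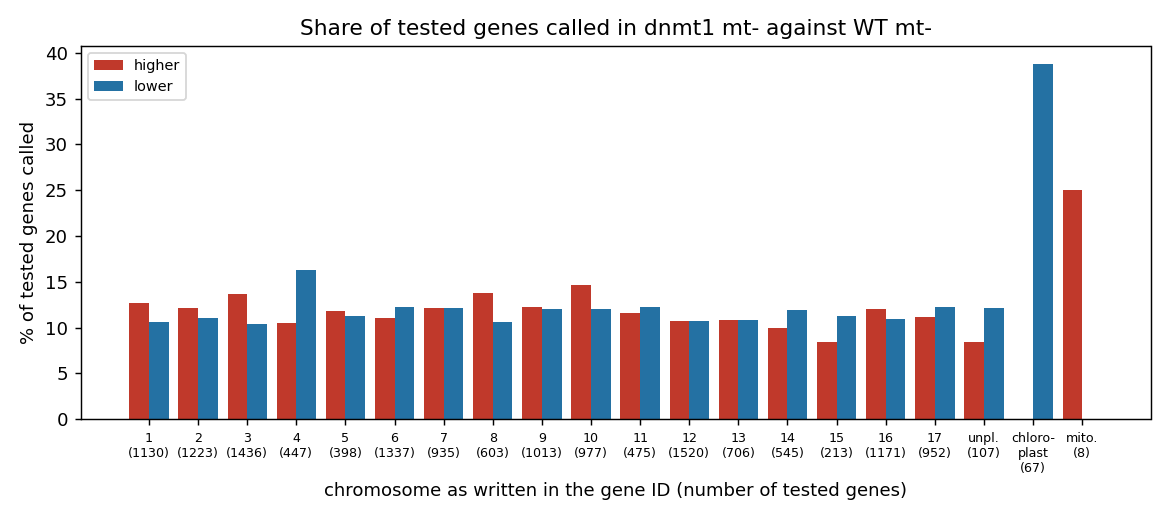
Percent of tested genes called higher and lower in dnmt1 mt- (y axis, paired bars from 0) on each of the 17 chromosomes, the unplaced sequences and the 2 organelle genomes (x axis, with the number of tested genes). Chromosomes lie between 8.45% and 16.3% in either direction, and the chloroplast stands out with 38.8% lower and 0 higher.

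Set beside mt+, where 1415 genes (9.27%) were higher and 1348 (8.83%) lower in dnmt1, 395 genes were called higher in both mating types and 447 lower in both. Another 119 were higher in mt- and lower in mt+, and 270 lower in mt- and higher in mt+. The genotype effect itself differed for 2109 genes (13.8%), above that in mt+ for 1069 (7%) and below it for 1040 (6.81%). Among genes called in both this test and mt- that averaged 5 CPM or more over the 8 libraries, the widest differences upward were of CAH4, CAH5, Cre02.g114350, CAH1, PTB4 and Cre09.g403256. Cre02.g114350 had 3.19 and 2.63 CPM in WT mt- and 14.8 and 13.1 CPM in dnmt1 mt-, and 11.0 and 10.9 CPM in WT mt+ and 2.87 and 3.22 CPM in dnmt1 mt+ (difference 4.09 ± 0.28, adjusted p = 1.92e-07). Downward they were of Cre13.g565250, Cre17.g731571, PDC3, Cre17.g723400, Cre10.g448977 and Cre17.g737350. Cre13.g565250 had 7.23 and 7.21 CPM in WT mt- and 1.59 and 1.77 CPM in dnmt1 mt-, and 1.95 and 1.3 CPM in WT mt+ and 8.61 and 12.3 CPM in dnmt1 mt+ (difference -4.81 ± 0.39, adjusted p = 1.11e-06), so its low groups were dnmt1 mt- and WT mt+.

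**Figure D5:**
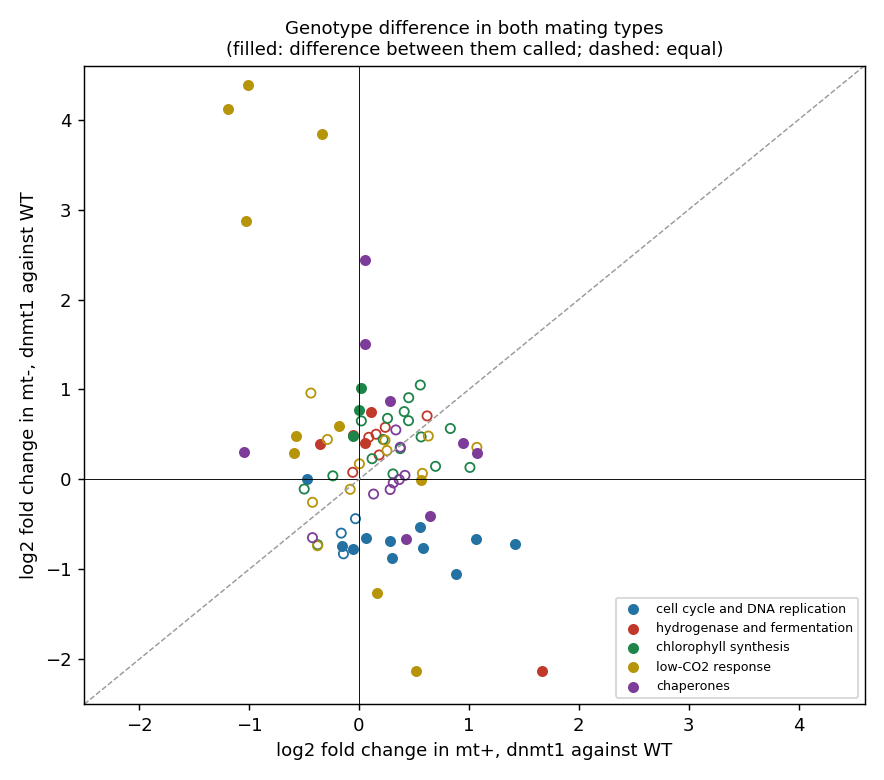
Log2 fold change of dnmt1 over WT in mt+ (x axis) against that in mt- (y axis) for the tested members of 5 gene lists, 1 colour each, filled where the 2 effects differ by the test; the dashed line marks equal effects. CAH4, CAH5 and CAH1 lie high and left of 0, PDC3 low and right of 0, and the cell-division genes below 0 in mt- on both sides of 0 in mt+, with MAT3 at 0.01 in mt-.

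Which group of the 4 stood apart varied by gene. Of the 1820 genes called higher, both WT mt- libraries were below all 6 other libraries in 1016 (55.8%), and both dnmt1 mt- libraries were above all 6 others in 799 (43.9%); 269 met both and 274 neither. Of the 1774 called lower, WT mt- was above all others in 979 (55.2%) and dnmt1 mt- below all others in 605 (34.1%). No called gene overlapped between the 2 mt- groups, so each call fixed the order against 2 of the 6 others. These shares cover called genes only and were not counted over all tested genes. The WT libraries of the 2 mating types are of different strains by title, so the level of WT mt- is one of strain, mating type and culture, which cannot be told apart here. CAH1, CAH4, CAH5, PTB4 and most photosystem genes had WT mt- as the low group, and most cell-division genes had dnmt1 mt- as the low group.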

How the data were processed

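Per the labels, RNA of vegetative cells was sequenced in 8 libraries after NEBNext preparation, 2 in each of 4 groups. The submitters' processing notes name, with no roles, DESeq2, featureCounts, Picard, STAR 2.7.6 and Trim Galore 2.6. The authors deposited raw counts per gene, used for every result here, and a table of normalized signal, which was not used in any test. IDs carry the suffix of the v6.1 annotation, left off here; 15386 of 17693 matched the RefSeq v5.5 locus tags, which served for gene order. Coordinates and sequences are not given. The strand setting of the counting is not given in the sources used here, so reads of overlapping antisense genes cannot be told apart.

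The filter was filterByExpr and the scaling TMM. A single model with a mean for each of the 4 groups was fitted to all 8 libraries by glmQLFit of edgeR 4.0.16 in R 4.3.3, leaving 4 residual degrees of freedom. The contrasts dnmt1 minus WT in mt-, in mt+, and their difference were tested 2-sided by glmQLFTest. P-values were adjusted over 15263 genes after Benjamini and Hochberg, and 0.05 was the threshold. The value after ± is a standard error, got from each fold change and its F statistic. DESeq2 1.42.0 was an alternative test, and the scripts were tested on simulated data. Figures were drawn with matplotlib 3.10.9 in Python 3.11.15.

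The members and lists were chosen with earlier results of these data known. Named genes were the 12 highest and 12 lowest log2 fold changes and the 10 widest CPM gains and losses among called genes that averaged 5 CPM or more in mt- with no overlap between the groups. They also include the 4 members of each list with the smallest p, all members of lists of 12 or fewer, DMT1, and the 6 widest differences between mating types each way among called genes that averaged 5 CPM or more. Other list members were named after their values were seen. PFO1 and DGTT2, of the fermentation and lipid lists, were not matched to an ID.

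Of counts from 2 to 19 in the mt- libraries, 25.5% to 27.2% were odd numbers, so fewer fragments than reads may stand behind a low count. Replicate numbers are shared between groups, but no label says that they mark a shared culture or day.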

Additional observations from a re-analysis of the deposited data

Results flagged for a closer look

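The effect of genotype differed between the mating types for 2109 genes by the test of the difference itself, and the named genes among them are given here as the log2 fold change in mt- minus that in mt+. In the low-CO2 response the effect in mt- was the higher one for CAH4 (5.40), CAH5 (5.31), LCIA (4.17), CAH1 (3.90), CAH8 (1.05), EPYC1 (0.89) and CAH7 (0.78). In that list it was the lower one for LCID (-2.65), BST2 (-1.42) and CAH3 (-0.57). Of the cell-division genes it was lower in mt- for CYCA1 (-2.14), RIR2 (-1.93), CYCB1 (-1.73), CDKB1 (-1.35), MCM3 (-1.17), PCNA1 (-1.08), CYCD1 (-0.97), RNR1 (-0.72), MCM4 (-0.71) and MCM2 (-0.59). It was higher there for MAT3 (0.48). Of the photosynthesis and pigment genes it was higher in mt- for CYC6 (2.46), UROD1 (1.00), ALAD1 (0.77), PRK1 (0.65), HDR1 (0.58), CHLG1 (0.54), PSY1 (0.49) and LHCB5 (0.44). Those with a lower effect in mt- were LHCSR1 (-2.76), LHCBM9 (-1.93) and PDS1 (-0.52). In fermentation, nitrogen, starch and nutrient genes it was higher in mt- for PTB4 (2.73), STA11 (0.72), HYDA2 (0.64), GSN1 (0.61), GLN1 (0.51), GDH1 (0.51) and ACK1 (0.35). It was lower in mt- for PDC3 (-3.80), SULTR2 (-2.93) and STA7 (-1.47) among these. In chaperone and redox genes the higher effects in mt- were of BIP2 (2.39), BIP1 (1.45), FSD1 (1.10), MSD1 (0.60), APX1 (0.60) and HSP90B (0.59). The lower effects were of HSP22F (-1.08) and HSP22E (-1.05). Among the remaining genes, DMT1 included, it was higher in mt- for Cre02.g114350 (4.09), Cre09.g403256 (2.73), DMT1 (2.66), Cre01.g043817 (2.27), Cre09.g397401 (1.87), Cre17.g802138 (1.28), Cre09.g409750 (0.51) and Cre05.g237450 (0.47). Lower effects in mt- were found for Cre13.g565250 (-4.81), Cre17.g731571 (-3.82), Cre17.g723400 (-3.21), Cre10.g448977 (-3.17), Cre17.g737350 (-2.99), Cre05.g245500 (-2.81), Cre17.g731591 (-2.66), Cre06.g278156 (-2.37), Cre01.g016700 (-2.08), Cre12.g494550 (-0.83) and Cre12.g801391 (-0.43).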

How the results depend on the processing

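Among the listed and named genes, no called fold change or difference changed sign under any alternative tried. The share of calls that were higher, 50.6%, fell to 48.1% with DESeq2, 47.3% with RLE size factors and 33.1% with library size. With a 2-fold minimum, 292 genes were higher, 283 lower and 831 differed between mating types, with 1 cell-division gene lower and 2 chlorophyll genes and 0 fermentation genes higher. Scaling by library size gave 1209 higher genes, and fitting the mt- libraries alone gave 2833 higher and 2826 lower. Leaving out 1 library at a time gave 761 to 2921 higher genes, 832 to 2840 lower and 1088 to 4341 that differed between mating types. List counts then ran from 10 to 13 for cell division, 6 to 13 for chlorophyll synthesis and 4 to 9 for fermentation. The lone library left in a group is assumed there to vary like the other groups. With the replicate number as a block, 1969 genes were higher, 1926 lower and 2359 differed. Deviations of same-numbered libraries from their group means correlated at r = -0.08 to 0.19 over genes, so the numbers are not shown to pair the samples. Of 178 called genes among those listed or named by rule, 95 kept their calls in all 8 fits that left out a library. The median log2 fold change of all tested genes was 0.01 with TMM, -0.01 with RLE size factors and -0.09 with library size. Among 841 tested genes under 1 CPM, the 5.23% called higher and 2.14% called lower had all changed at least 2-fold, so smaller changes were not detectable there.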
